A study of Mus musculus with 12 samples.

Results

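Lin28b, Hmga2, Hmga1, Igf2bp1, Igf2bp2, Igf2bp3 and Arid3a were followed across cell classes, stages and Jag1 genotypes in single-cell RNA libraries of mouse liver. The genes were found by symbol, and all 7 were among the 22519 genes listed at both stages. Livers came from fetuses at E16.5 and from pups 3 days after birth (P3), both from crosses of Jag1Ndr/+ parents. The genotypes were Jag1+/+, Jag1Ndr/+ and Jag1Ndr/Ndr, where Ndr is the Nodder allele of the Notch ligand gene Jag1. Per the labels, there were 2 animals for each genotype and stage, dead cells were removed from every suspension, and the E16.5 suspensions, unlike those at P3, were also digested with TrypLE. Homozygous pups at P3 were picked by jaundice before they were genotyped. The strain label of the homozygotes reads Jag1Ndr/Nd, and their titles and the design text give Jag1Ndr/Ndr.

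The 12 deposited matrices held 9 libraries. At E16.5 these were E1 (Jag1+/+), E2 (1 matrix deposited under both Jag1+/+ and Jag1Ndr/+), E3 (Jag1Ndr/+), and E4 and E5 (both Jag1Ndr/Ndr). At P3, libraries A and B carry a Jag1+/+ label but their barcodes also appear under Jag1Ndr/Ndr labels. The matrix labelled Jag1Ndr/+ replicate 2 at P3 shared 100% of its 15754 barcodes with B and was counted as B, so that B carries all 3 genotype labels. The genotype of A and B is therefore unclear. Library C is a Jag1Ndr/Ndr matrix without the barcodes it shares with A, and library D is Jag1Ndr/+. Libraries A and B therefore entered comparisons of stage and no comparison of genotype.

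LIN28B is an RNA-binding protein of fetal and stem cells that blocks the maturation of let-7 microRNAs, which in turn repress Lin28b. The HMGA proteins are architectural chromatin factors, the IGF2BP proteins bind and stabilise messenger RNAs, and ARID3A is a DNA-binding transcription factor of the B lineage. Messenger RNAs of this group are known let-7 targets, and in blood formation the Lin28b, let-7 and Hmga2 axis is known for marking the fetal state of stem cells and lymphoid progenitors.

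The let-7 family is shown first because its seed links the members. In the RefSeq miRNA table (GRCm38.p6), 10 mature names from 12 loci shared the seed GAGGUAG at bases 2 to 8, and 3 of them are printed here with the seed in capitals.
let-7a-5p: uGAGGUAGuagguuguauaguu
let-7b-5p: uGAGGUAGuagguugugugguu
let-7g-5p: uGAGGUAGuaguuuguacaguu
The complement of the seed, CTACCTC, was searched on the transcript strand of the longest annotated 3′ UTR of each gene (GENCODE M21, GRCm38). It occurred in 7 of the 7 members, against 9.03% of 20998 protein-coding genes with a 3′ UTR. Since the members are known let-7 targets, matches were likely in advance, and these shares describe the list and test nothing. The members' UTRs were also long, with a median of 3014 bases against 962 for all. Among UTRs of similar length (at least 80% of the member's, and of which the member's is at least 80%), the share with the match was 8.24% for Hmga1, 12.1% for Igf2bp2, 13.3% for Igf2bp3, 16.1% for Hmga2, 16.3% for Arid3a, 24.4% for Lin28b and 34.4% for Igf2bp1. The 8-base form CTACCTCA, which contains the 7-base match, occurred in 6 of the 7 members and in 3.07% of all genes. Lin28b, Hmga2 and Igf2bp1 each held 4 matches, a number of at least 3 that 0.152% of genes reached. The first match of each member is printed with 14 bases before it, and capitals mark the match.
Lin28b: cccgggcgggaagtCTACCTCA
Hmga2: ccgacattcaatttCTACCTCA
Hmga1: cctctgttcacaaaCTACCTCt
Igf2bp1: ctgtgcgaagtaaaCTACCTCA
Igf2bp2: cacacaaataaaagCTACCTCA
Igf2bp3: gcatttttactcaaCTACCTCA
Arid3a: aggcaagtttctttCTACCTCA
On GRCm38 these windows lie in 3′ UTR exons at chr10:45381022-45381043 (minus strand) for Lin28b, chr10:120364224-120364245 (minus) for Hmga2 and chr17:27563278-27563299 (plus) for Hmga1. Those of the Igf2bp genes lie at chr11:95961778-95961799, chr16:22059473-22059494 and chr6:49086787-49086808, all on the minus strand. The Arid3a window lies at chr10:79953896-79953917 on the plus strand. The Lin28b and Hmga2 matches begin 36 and 58 bases into the UTR, and the map of matches along the UTRs shows the others further from the stop codon. A match describes the letters in the window and not a measured site, since no let-7 level was measured in these libraries.

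**Figure D1:**
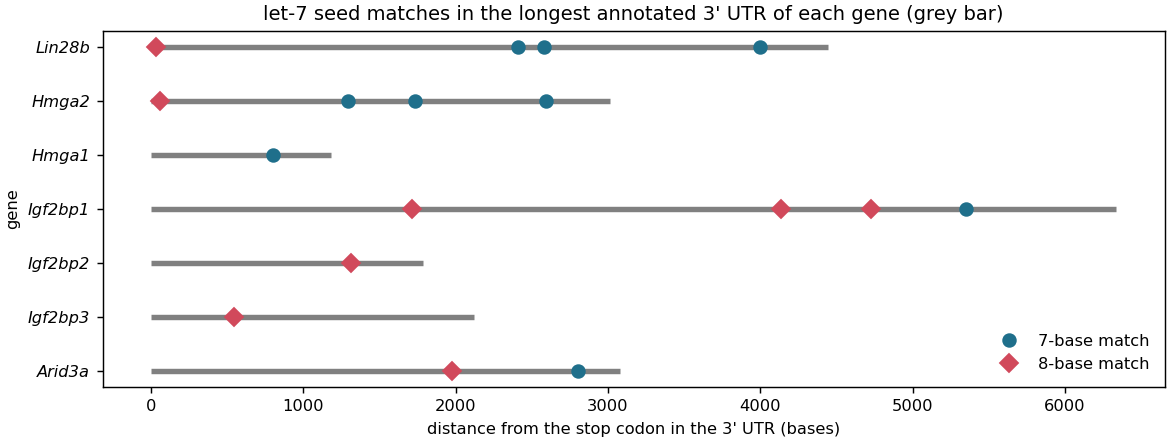
Position of let-7 seed matches along the longest annotated 3′ UTR of each gene, in bases from the stop codon. Grey bars are the UTRs, circles are 7-base and diamonds are 8-base matches. Lin28b, Hmga2 and Igf2bp1 carry 4 matches each, Arid3a carries 2, and the others carry 1.

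The 9 libraries held 75745209 to 258642858 UMIs, and 15024 to 29034 barcodes per library had at least 1000 UMIs and at most 15% mitochondrial UMIs. Levels are given as CPM, a gene's UMIs scaled to the total UMIs of the summed cells of a class in 1 library, and cells were sorted by marker genes into 18 classes, called hepatocyte-like and so on. A class of a library was used with at least 20 cells. CPM is not corrected for transcript length, so levels are compared between classes within a gene and not between genes. Log2 differences are P3 minus E16.5 from edgeR, with composition scaling by TMM. That scaling mattered: without it the median log2 difference over all genes was 0.61 in whole libraries, -1.09 in late erythroid-like and 0.70 in macrophage-like cells, against 0.02, -0.01 and 0.01 with it. A fold from the test therefore need not equal the ratio of the CPM means. Erythroid RNA was present in every class examined at E16.5. In neutrophil-like cells the 12 late erythroid markers, globins included, summed to 138100 to 270000 CPM at E16.5 and to 3818 to 7282 CPM at P3, and 12 of the 12 fell. In hepatocyte-like cells the same sum was 182300 to 426600 CPM at E16.5 and 135800 to 293300 at P3, where 2 markers rose and 2 fell. Stage also cannot be told apart from the digestion, the software version and the gene annotation that differed with it.

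In whole libraries, Lin28b, Hmga2, Igf2bp1 and Igf2bp2 fell from E16.5 to P3, and Igf2bp3 and Arid3a rose. Hmga1 did not pass the test. This is 4 of the 7 members called lower and 2 called higher, where 26.4% of 14504 genes were lower and 27.6% were higher (edgeR, adjusted p under 0.05). In such sums over all cells, fewer cells of a type and less RNA per cell cannot be told apart. Lin28b was at 10.97, 13.25, 6.15, 7.93 and 10.7 CPM in E1 to E5 and at 5.27, 5.64, 6.54 and 7.68 CPM in A to D. The ranges overlapped in CPM, because E3 was low, and the scaled difference was -1.22 ± 0.14 (SE, adjusted p = 5.26e-05). Igf2bp2 was at 3.24, 4.09, 1.705, 1.87 and 4.35 CPM at E16.5 and at 1.53, 1.53, 1.28 and 1.58 CPM at P3, so that every P3 library was below every E16.5 library. Only 5.45% of genes had ranges that separated in that direction. The scaled difference of Igf2bp2 was -1.61 ± 0.22 (adjusted p = 0.000157). Hmga2 differed by -1.09 ± 0.18 (adjusted p = 0.000565), a call that was lost without TMM scaling (-0.53, adjusted p = 0.102). Igf2bp1 was at 13.98, 16.7, 6.24, 3.69 and 12.7 CPM at E16.5 and at 2.24, 2.35, 1.13 and 6.97 CPM at P3, where library D lay above E3 and E4. The ranges thus overlapped, and the difference was -2.31 ± 0.50 (adjusted p = 0.00261).

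Igf2bp3 was at 23.7, 34.6, 14.1, 19.2 and 20.3 CPM in E1 to E5 and at 45.5, 52.2, 43.1 and 41.6 CPM in A to D. Arid3a was at 33.9, 51.0, 16.8, 27.5 and 30.0 CPM at E16.5 and at 72.1, 78.1, 59.8 and 69.9 CPM at P3. For both genes every P3 library was above every E16.5 library, a separation that 37.5% of genes showed in CPM. After scaling the rises were 0.465 ± 0.10 for Igf2bp3 (adjusted p = 0.00276) and 0.59 ± 0.13 for Arid3a (adjusted p = 0.003).

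**Figure D2:**
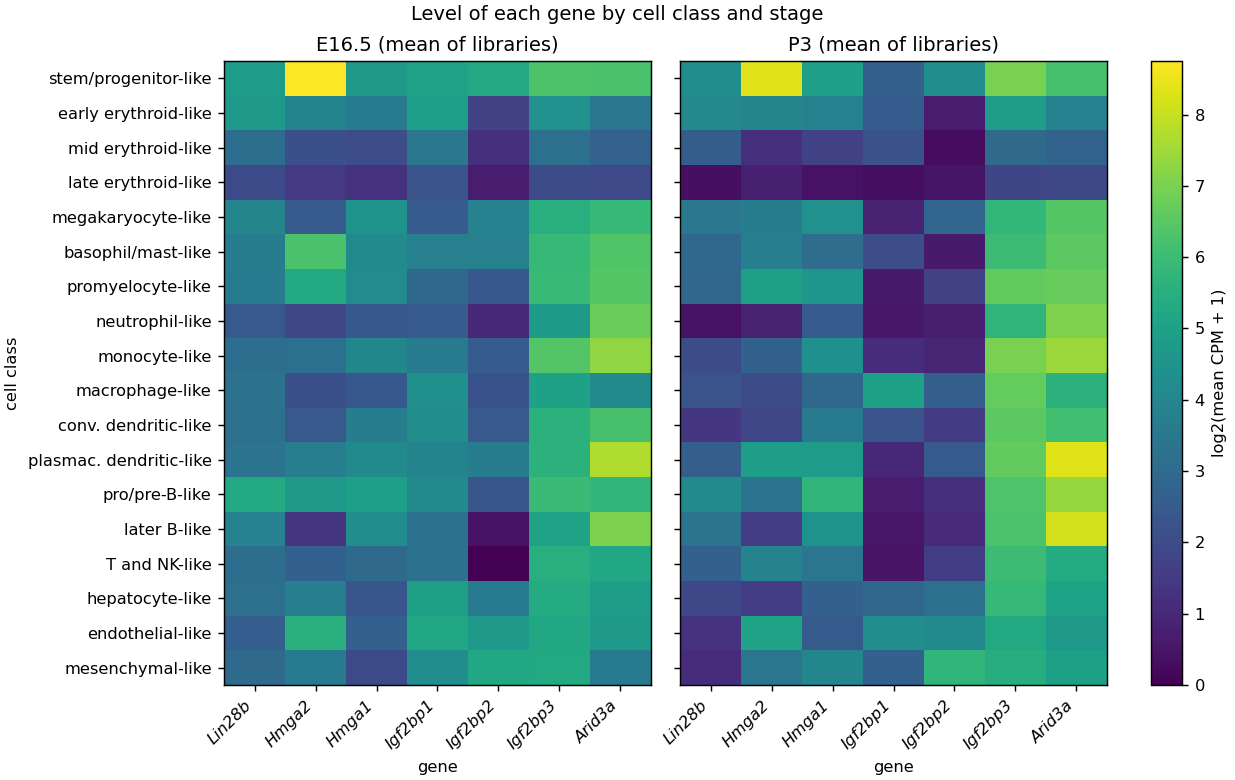
Mean level of each gene by cell class at E16.5 and P3, as log2(mean CPM + 1). Colours are to be read down a column, within a gene. Hmga2 was highest in the stem/progenitor-like class at both stages, with means of 429 and 316 CPM, and Igf2bp1 was highest at P3 in the macrophage-like class at 30.8 CPM.

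By class, 100 of the 126 pairs of member and class had enough counts to be tested. Of these, 38 were lower and 14 were higher at P3, where 21.8% of 162508 pairs over all genes were lower and 21.4% higher. The lower calls were 11 of Lin28b, 8 of Hmga2, 10 of Igf2bp1, 7 of Igf2bp2, and 1 each of Hmga1 and Igf2bp3. The higher calls were 10 of Igf2bp3 and 4 of Arid3a. The 26 untested pairs had low counts and are given as levels only.

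Lin28b, the let-7 antagonist, was highest by mean in pro/pre-B-like, stem/progenitor-like and early erythroid-like cells at both stages, and it fell in 11 of the 12 classes tested. At E16.5 the means of these 3 classes were 39.4, 27.0 and 25.6 CPM, and at P3 they were 16.85, 19.4 and 16.2 CPM. Ranges of neighbouring classes in this order overlapped, so the order among the top 3 is not resolved. The top 3 were also not set apart from the classes below. Later B-like cells reached 30.2 CPM at E16.5, and megakaryocyte-like cells reached 18.7 CPM at E16.5 and 19.5 CPM at P3. The lowest class at both stages was late erythroid-like, at 2.86 CPM and then 0.289 CPM.

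In pro/pre-B-like cells Lin28b was at 41.5, 46.6, 27.0, 35.7 and 46.1 CPM in E1 to E5 and at 17.3, 17.4, 15.7 and 17.0 CPM in A to D. The P3 libraries were tightly grouped and all below the lowest E16.5 library, E3. The scaled difference was -1.46 ± 0.13 (adjusted p = 2.775e-06), a 2.755-fold fall. The share of these cells with a Lin28b UMI, after thinning each cell to 2000 UMIs, was 7.69% at E16.5 and 2.94% at P3 (25.1% and 7.035% without thinning, at median depths of 7333 and 3295 UMIs). In late erythroid-like cells the thinned shares were 0.602% and 0.0614%. The class itself also shifted: 7 of its 10 markers fell and 2 rose, while the late erythroid markers within it dropped from between 157800 and 319400 CPM to between 4308 and 7776 CPM. Their part in the Lin28b difference was not tested. The mean of Lin28b in pro/pre-B-like cells at E16.5 was above that of the early, mid and late erythroid-like classes. The pro/pre-B-like range, from 26.98 CPM, overlapped that of early erythroid-like cells, which reached 30.28 CPM. This comparison of levels does not test the part of erythroid RNA in the Lin28b difference.

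In neutrophil-like cells Lin28b was at 3.79, 5.605, 4.62, 3.03 and 5.08 CPM at E16.5 and at 0.3485, 0.426, 0.402 and 0.232 CPM at P3. Every P3 library was far below every E16.5 library, and the scaled difference was -3.54 ± 0.30 (adjusted p = 1.91e-06). The P3 values rest on 8, 6, 4 and 1 Lin28b UMIs in A to D. Early erythroid markers in these cells went from between 955 and 1320 CPM to between 86.7 and 155 CPM (8 of 9 tested fell), and Lin28b was higher in early erythroid-like cells than here. Their part in the Lin28b difference was not tested. In hepatocyte-like cells, the parenchyma of the liver, it was at 10.2, 10.96, 4.80, 7.45 and 8.57 CPM at E16.5 and at 2.22, 0.643, 3.26 and 4.90 CPM at P3. The ranges met between library E3 at 4.80 CPM and library D at 4.90 CPM, and the difference was -1.72 ± 0.36 (adjusted p = 0.00188). These P3 values rest on 8, 1, 3 and 4 UMIs. Macrophage-like cells showed a difference of -1.99 ± 0.34 and monocyte-like cells -1.53 ± 0.235. In macrophage-like cells library D, at 7.445 CPM, lay above E3 and E4, at 5.88 and 5.13 CPM. Early erythroid markers in that class went from between 2166 and 2399 CPM to between 1071 and 1335 CPM (9 of 9 tested fell). Their part in the Lin28b difference was not tested. The P3 range lay below the E16.5 range in 5 of the 12 classes tested, against 12.4% of all pairs.

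Among the classes that passed, the estimate was smallest in stem/progenitor-like cells, although it lay within 1 SE of those of early erythroid-like and megakaryocyte-like cells, so the order is not resolved. Markers of other cells moved within the stem/progenitor-like class. The late erythroid ones went from between 73860 and 152800 CPM to between 3296 and 5982 CPM (12 of 12 fell), the macrophage ones from between 11.96 and 25.7 CPM to between 114 and 319 CPM (6 of 6 tested rose), and 5 of 6 pro/pre-B markers rose. Their part in the members' differences in this class was not tested. In stem/progenitor-like cells Lin28b was at 19.9, 35.9, 19.4, 28.6 and 31.25 CPM at E16.5 and at 20.0, 22.4, 14.2 and 21.0 CPM at P3. The ranges overlapped, and the difference of -0.68 ± 0.23 (adjusted p = 0.0258) was lost when library A, C, E2 or E5 was left out, and without TMM scaling (adjusted p up to 0.1425 over the alternatives). The call in megakaryocyte-like cells (-0.85 ± 0.30, adjusted p = 0.03605) was lost without A, B, C, E2, E3 or E5. In that class hepatocyte markers went from between 607 and 1792 CPM to between 68.4 and 181 CPM (8 of 9 tested fell), and 10 of 11 mid and 9 of 12 late erythroid markers fell; their part in the Lin28b and Igf2bp2 calls there was not tested. In later B-like cells the difference was -0.795 ± 0.37 (adjusted p = 0.096) and did not pass.

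**Figure D3:**
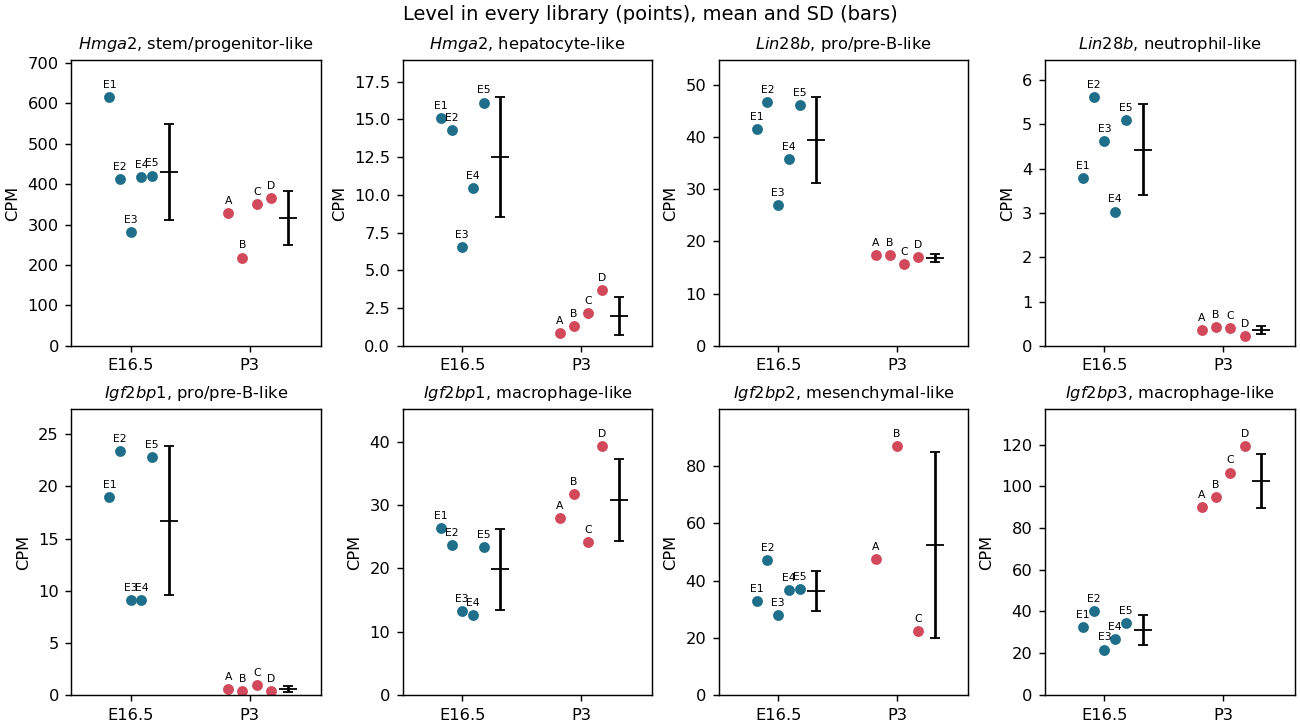
CPM in every library for 8 pairs of gene and class, with E16.5 libraries E1 to E5 on the left and P3 libraries A to D on the right of each panel. Points are libraries, and bars are the mean with its SD. Lin28b and Igf2bp1 in pro/pre-B-like cells separate by stage, Igf2bp3 in macrophage-like cells separates upward, and Hmga2 in stem/progenitor-like cells overlaps. Library D held fewer than 20 mesenchymal-like cells and has no point there.

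Hmga2, a chromatin factor of fetal and self-renewing stem cells, marked the stem/progenitor-like class at both stages. It was at 614, 413, 282, 416.5 and 421 CPM in E1 to E5 and at 329.6, 218, 352 and 365 CPM in A to D. The lowest library of this class was above the highest library of the next class at each stage, which was basophil/mast-like at E16.5 (up to 115 CPM) and endothelial-like at P3 (up to 39.0 CPM). Within the class the stages overlapped, and Hmga2 differed by -0.64 ± 0.19 (adjusted p = 0.0101), a 1.55-fold fall that did not pass without TMM scaling (-0.44, adjusted p = 0.0715). After thinning to 2000 UMIs, 43.9% of these cells had an Hmga2 UMI at E16.5 (32.2% to 59.8% over libraries) and 42.7% at P3 (32.2% to 47.9%). Without thinning the shares were 82.7% and 74.9%, at median depths of 15412 and 9666 UMIs. In late erythroid-like cells the thinned shares were 0.339% and 0.129%.

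The stem/progenitor-like class was made of 5 clusters at each stage, and Hmga2 varied among them. At E16.5 its pooled level was 655 CPM in cluster 28, 388 in cluster 31, 346 in cluster 43, 279 in cluster 29 and 102 in cluster 44. Over libraries with 20 cells, the ranges of clusters 28 (419 to 870.5 CPM), 31 (270.5 to 500.3) and 43 (401 to 456) overlapped, and the 1 such library of cluster 29 was at 167 CPM, so the order of these clusters is not resolved. Cluster 29 had the highest level of Hlf, a transcription factor of blood stem cells, at 501 CPM, and its pooled Hmga2 was not the highest. At P3 the levels were 308.5 to 390.2 CPM in clusters 44, 50, 53 and 54 and 144 CPM in cluster 52, which came from 1 library and had the highest Hlf at P3 (189 CPM). These clusters held 37 to 243 cells, and the P3 clusters drew on 1 to 3 libraries, so no test was made between them.

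The largest Hmga2 differences were in hepatocyte-like and basophil/mast-like cells, and differences of other classes from that of stem/progenitor-like cells were not tested. In hepatocyte-like cells it was at 15.1, 14.3, 6.56, 10.47 and 16.1 CPM at E16.5 and at 0.834, 1.29, 2.17 and 3.67 CPM at P3. The ranges were apart, and the difference was -2.95 ± 0.41 (adjusted p = 9.145e-05), a 7.73-fold fall. The P3 values rest on 3, 2, 2 and 3 Hmga2 UMIs in A to D. In hepatocyte-like cells 10 of 11 mid erythroid markers also fell, from summed levels of 3560 to 4846 CPM to 802 to 2083 CPM. Of the mesenchymal markers 8 of 9 tested fell (118 to 296 CPM and then 28.9 to 99.2 CPM), while 4 of 7 pro/pre-B markers rose (71.65 to 107.5 CPM and then 285 to 839 CPM), as did 5 of 9 macrophage markers. The part of these shifts in the members' hepatocyte-like values was not tested. In basophil/mast-like cells, Hmga2 was at 115, 40.3, 64.7, 69.95 and 85.3 CPM at E16.5 and at 9.83, 7.37, 11.1 and 20.8 CPM at P3. Here too the ranges were apart, with a difference of -2.81 ± 0.365 (adjusted p = 1.25e-05), and the P3 values rest on 12, 2, 5 and 5 UMIs. Stem/progenitor markers in this class went from between 292 and 468 CPM to between 188 and 249 CPM (4 of 5 tested fell), and 11 of 12 late erythroid markers fell. The class joined 2 clusters at each stage, and the smaller was led by Prg2 at both, followed by Ikzf2 and Cpa3 at E16.5 and by the mast cell proteases Cma1, Tpsb2 and Mcpt4 at P3. The part of these shifts in the Hmga2 difference was not tested. The difference in pro/pre-B-like cells was -1.67 ± 0.23 (adjusted p = 0.000104), and again every P3 library was below every E16.5 library.

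Some Hmga2 calls depended on the handling of cells or libraries. In mid erythroid-like cells the difference was -1.75 and in neutrophil-like cells -1.68, but with called doublets kept these became -0.79 and -0.30, with adjusted p of 0.119 and 0.384. In endothelial-like cells the difference of -0.74 was lost without A, B, E1, E2 or E5, and in promyelocyte-like cells the difference of -0.60 was lost without any 1 of 8 of the 9 libraries. Hmga2 did not pass in early erythroid-like (-0.13 ± 0.28, adjusted p = 0.736), late erythroid-like, macrophage-like, monocyte-like or T and NK-like cells.

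**Figure D4:**
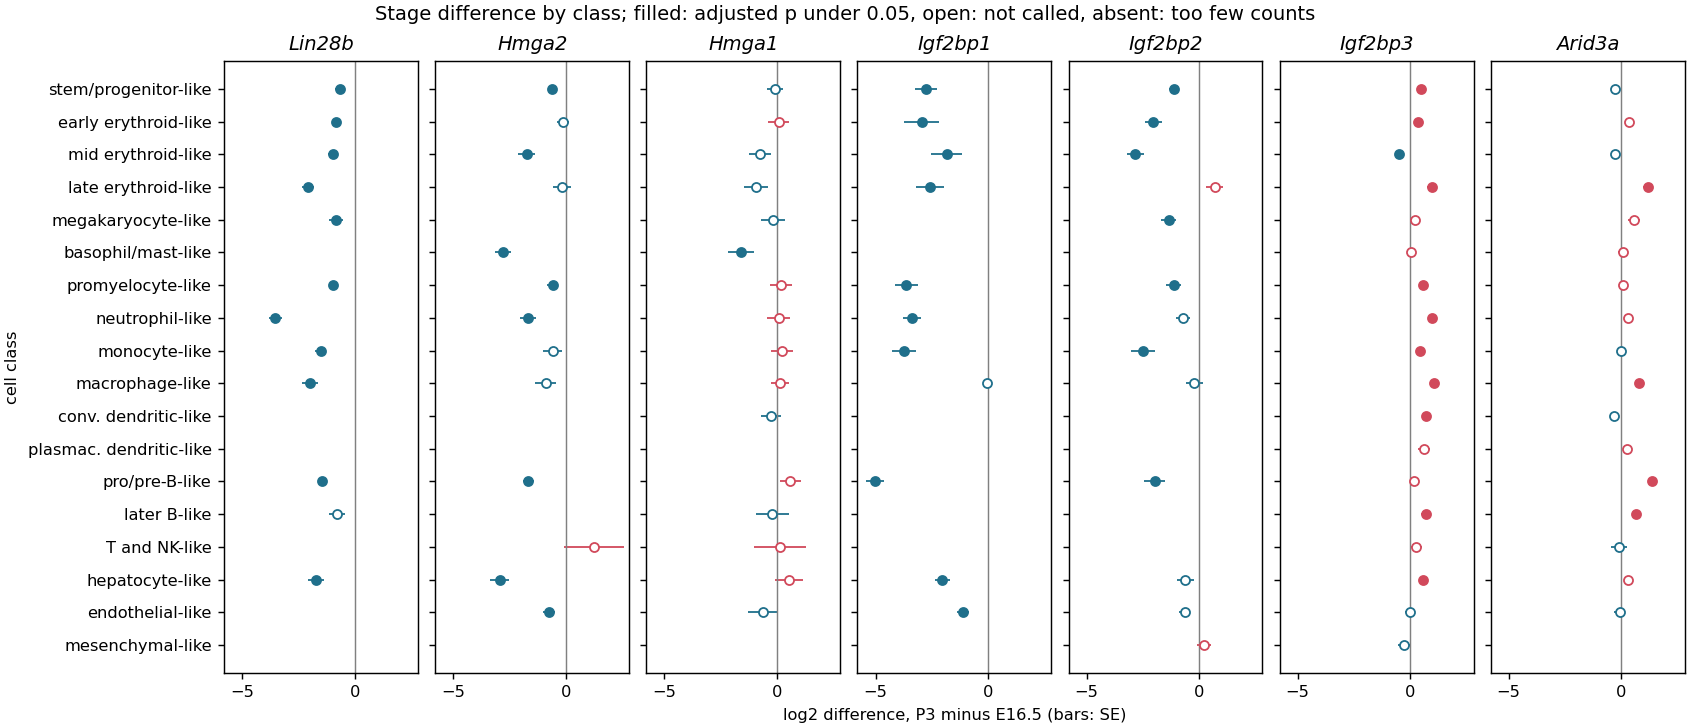
Log2 difference between stages (P3 minus E16.5) for each gene and class, with SE bars. Filled points passed an adjusted p of 0.05 and open points did not, blue points are below and red points above 0, and pairs with too few counts have no point. Lin28b, Hmga2, Igf2bp1 and Igf2bp2 lie mostly below 0, and Igf2bp3 and Arid3a lie mostly near or above 0.

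Hmga1, the other HMGA gene, is widely expressed in dividing cells and has a near-identical copy, Hmga1b, so reads may have been split between them and its levels are uncertain. Whole-library Hmga1 was at 7.71, 10.3, 5.06, 4.75 and 8.12 CPM in E1 to E5 and at 4.13, 31.7, 4.29 and 8.45 CPM in A to D. Library B stood apart from the other P3 libraries, and it was the highest P3 library in 17 of the 17 classes where all 4 could be compared, by 2.15-fold to 8.81-fold over the next. Of all genes, 0.641% were at least 3-fold higher in B than in each other P3 library. Hmga1 and Hmga1b together were at 45.3 CPM in B, at 6.68 to 13.7 CPM in A, C and D, and at 6.94 to 17.5 CPM at E16.5. The share of Hmga1 in that sum ran from 30.1% in A to 92.5% in D, and from 50.5% to 72.9% at E16.5.

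With all libraries the stage difference of Hmga1 was 0.13 ± 0.50 (adjusted p = 0.843) in whole libraries. Without library B it was -0.91 and passed (adjusted p = 0.00892). The CPM of Hmga1 and Hmga1b together in A, C and D (6.68 to 13.7) overlapped the E16.5 range (6.94 to 17.5). The part of the split of reads in the Hmga1 differences without B was not tested. By class, 1 of 16 tests passed with all libraries, in basophil/mast-like cells (-1.59 ± 0.59, adjusted p = 0.0355), and it was lost without A, C or D. Without library B, Hmga1 was lower at P3 in early erythroid-like (-0.91), neutrophil-like (-1.10), promyelocyte-like (-0.93), macrophage-like (-0.875) and monocyte-like cells (-0.87), where the sign had been positive. The class order of Hmga1 was led by pro/pre-B-like cells at 30.0 CPM and stem/progenitor-like cells at 25.3 CPM at E16.5. At P3 the 4 libraries of pro/pre-B-like cells were at 18.3, 130.1, 21.9 and 41.3 CPM.

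**Figure D5:**
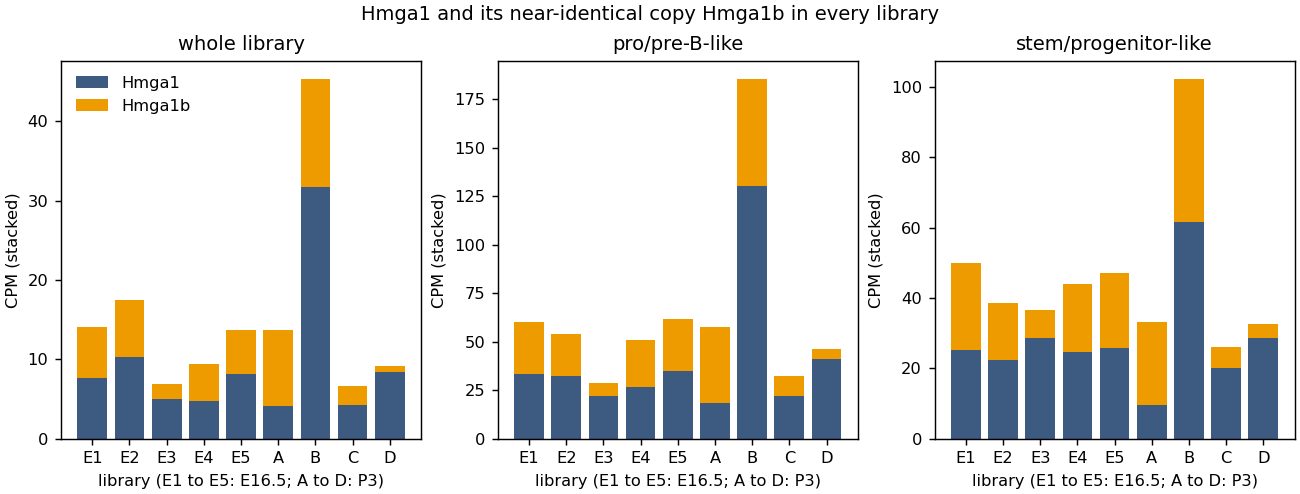
Stacked CPM of Hmga1 and its copy Hmga1b in every library, for whole libraries, pro/pre-B-like and stem/progenitor-like cells. Library B is the tallest bar in each panel, at 45.3 CPM for the sum in whole libraries, and the split between the copies differs between libraries.

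Igf2bp1, an oncofetal RNA-binding protein, fell in 10 of the 11 classes tested, and its largest fall was larger than that of any other member. At E16.5 it was highest in endothelial-like (37.4 CPM), stem/progenitor-like (31.7), hepatocyte-like (30.3) and early erythroid-like cells (29.9), with overlapping ranges. At P3 it was highest in macrophage-like (30.8 CPM) and endothelial-like cells (18.55), and both ranges lay above that of the class next by mean, hepatocyte-like (6.45 CPM). The endothelial-like range, from 11.85 CPM, overlapped that of early erythroid-like cells, which reached 14.2 CPM.

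In pro/pre-B-like cells Igf2bp1 was at 19.0, 23.4, 9.08, 9.11 and 22.9 CPM at E16.5 and at 0.577, 0.414, 0.9445 and 0.347 CPM at P3. The ranges were far apart, and the difference was -5.02 ± 0.41 (adjusted p = 1.28e-06), a 32.5-fold fall. The P3 values rest on 6, 3, 5 and 1 Igf2bp1 UMIs in A to D, so the size of the fall is uncertain. The thinned share of these cells with an Igf2bp1 UMI went from 2.895% to 0.0533%, the latter close to the 0.0458% of late erythroid-like cells at P3. Monocyte-like, promyelocyte-like and neutrophil-like cells showed differences of -3.74, -3.64 and -3.36, and in these 3 classes too every P3 library was below every E16.5 library. Their P3 libraries held 0 to 7, 1 to 9 and 3 to 9 Igf2bp1 UMIs. The 12 late erythroid markers fell in all 3, from between 93990 and 178800 CPM to between 4353 and 5882 CPM in monocyte-like and from between 65470 and 156000 CPM to between 3567 and 6629 CPM in promyelocyte-like cells, and their part was not tested. In hepatocyte-like cells Igf2bp1 was at 36.7, 44.1, 18.9, 21.7 and 29.8 CPM at E16.5 and at 9.175, 4.50, 1.09 and 11.02 CPM at P3, again apart, with a difference of -2.04 ± 0.32 (adjusted p = 0.000242). In endothelial-like cells the fall was -1.12 ± 0.25 (adjusted p = 0.00188), and library B at 25.8 CPM was above library E3 at 23.8 CPM. Endothelial markers in this class went from between 3020 and 4751 CPM to between 6310 and 7185 CPM (7 of 10 rose), 11 of 11 mid erythroid and 5 of 7 tested neutrophil markers fell, and 5 of 9 macrophage markers rose. Their part in the Igf2bp1 and Hmga2 falls there was not tested.

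In macrophage-like cells, Igf2bp1 was at 26.3, 23.6, 13.2, 12.6 and 23.4 CPM at E16.5 and at 27.9, 31.8, 24.2 and 39.25 CPM at P3. The P3 libraries were among the highest values, and the scaled difference was -0.04 ± 0.18 (adjusted p = 0.875), or 0.63 (adjusted p = 0.0525) without TMM scaling. The thinned share with a UMI was 3.32% at E16.5 and 5.39% at P3. In this class 8 of 9 macrophage markers rose, and their sum went from between 5577 and 7955 CPM to between 29000 and 34350 CPM. The 12 late erythroid markers fell, from summed levels of 218300 to 427000 CPM to 4941 to 11360 CPM, and 17 of 17 proliferation genes fell, where 30.1% of all genes fell and 29.2% rose. What part these shifts had in the Igf2bp1, Lin28b, Igf2bp3 and Arid3a values of this class was not tested.

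Igf2bp1 also differed among libraries of 1 stage in the erythroid lineage. In early erythroid-like cells it was at 45.7, 42.15, 18.4, 6.50 and 36.9 CPM in E1 to E5 and at 3.99, 0.5485, 0.378 and 14.2 CPM in A to D. E4, a Jag1Ndr/Ndr library, was the lowest at E16.5, and D, the Jag1Ndr/+ library, was the highest at P3 and above E4. The stage difference was -2.96 ± 0.79 (adjusted p = 0.0091). Within early erythroid-like cells, late erythroid markers went from between 80240 and 207400 CPM to between 3218 and 5626 CPM (12 of 12 fell), 11 of 11 mid erythroid and 8 of 10 hepatocyte markers fell, and 5 of 10 neutrophil markers rose. The part of these shifts in the members' differences in this class was not tested. E4 was also the lowest E16.5 library for Igf2bp1 in whole libraries (3.69 CPM) and in most other classes. Among these were stem/progenitor-like (9.96 CPM), neutrophil-like (1.76), monocyte-like (5.21), macrophage-like (12.6), promyelocyte-like (1.855) and mesenchymal-like cells (7.89). Of the classes with all 5 libraries, E4 was not the lowest in hepatocyte-like, endothelial-like, conventional dendritic-like or pro/pre-B-like cells. The call in mid erythroid-like cells (-1.84 ± 0.68, adjusted p = 0.0441) was lost without A, B, C, E1, E2, E3 or E5.

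Igf2bp2, the family member with the broadest adult expression, was highest in stem/progenitor-like, mesenchymal-like and endothelial-like cells at E16.5 (37.5, 36.3 and 25.6 CPM). These ranges lay above that of the class next by mean, megakaryocyte-like (up to 16.2 CPM). The endothelial-like range, from 17.4 CPM, overlapped basophil/mast-like (up to 25.7 CPM), plasmacytoid dendritic-like (up to 21.1) and hepatocyte-like cells (up to 18.8). In stem/progenitor-like cells it was at 48.9, 34.5, 26.05, 32.55 and 45.4 CPM at E16.5 and at 22.1, 21.0, 17.8 and 15.3 CPM at P3. Every P3 library was below every E16.5 library, with a difference of -1.14 ± 0.22 (adjusted p = 0.0004275). Among the E16.5 clusters of this class, the CPM of Igf2bp2 pooled over libraries was 77.4 in cluster 29, the one with the most Hlf, and 12.99 to 38.8 in the others. The 1 library with 20 cells in cluster 29 was at 38.9 CPM, within the library ranges of clusters 28 and 31 (17.8 to 54.2 and 29.3 to 46.9 CPM), so this order is not resolved. Igf2bp2 also fell in mid erythroid-like (-2.84), monocyte-like (-2.49), early erythroid-like (-2.03), pro/pre-B-like (-1.98), megakaryocyte-like (-1.35) and promyelocyte-like cells (-1.13). Its P3 counts were low. Libraries A to D held 3, 2, 7 and 2 UMIs in mid erythroid-like and 8, 8, 1 and 2 in monocyte-like cells. They held 10, 9, 5 and 6 in early erythroid-like and 12, 4, 10 and 4 in pro/pre-B-like cells. The mid erythroid-like class held different clusters by stage. At E16.5 a cluster of 12432 cells, next to others of 13184 and 1037, was led by the embryonic globins Hbb-y and Hba-x, which led no cluster of the class at P3. Hepatocyte markers in the class went from between 2494 and 2988 CPM to between 175 and 433 CPM (10 of 10 fell), and the part of these shifts in the members' values there was not tested.

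In mesenchymal-like cells, which include the fibroblast lineage of the liver, Igf2bp2 was at 32.7, 47.2, 27.8, 36.8 and 37.15 CPM at E16.5 and at 47.6, 86.9 and 22.4 CPM in libraries A, B and C. The P3 values spread around the E16.5 range, and the difference was 0.21 ± 0.32 (adjusted p = 0.635). These P3 sums rest on 28 to 72 cells a library. Within the class, neutrophil markers went from between 1008 and 1919 CPM to between 40350 and 47940 CPM (7 of 7 tested rose) and late erythroid markers from between 205800 and 405900 CPM to between 30680 and 67340 CPM (12 of 12 fell). Their part in the Igf2bp2 values of this class, and in its comparison with erythroid-like cells, was not tested. Igf2bp2 did not pass in endothelial-like cells (-0.66 ± 0.26, adjusted p = 0.0507) or hepatocyte-like cells (-0.62 ± 0.37, adjusted p = 0.195).

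Igf2bp3, the remaining IGF2BP gene, went the other way: it rose in 10 of 18 classes and fell in 1. It was highest in monocyte-like and stem/progenitor-like cells at both stages, at 83.8 and 78.3 CPM at E16.5 and at 125 and 126 CPM at P3, with overlapping ranges. In macrophage-like cells Igf2bp3 was at 32.5, 40.4, 21.8, 26.6 and 34.7 CPM at E16.5 and at 90.2, 94.8, 106.6 and 119 CPM at P3. The ranges were far apart, and the scaled rise was 1.03 ± 0.11 (adjusted p = 1.29e-05). The marker shifts of this class are given above with Igf2bp1, and their part in this rise was not tested. The thinned share of macrophage-like cells with an Igf2bp3 UMI was 4.25% at E16.5 and 18.4% at P3, against 0.6425% and 0.532% in late erythroid-like cells. Neutrophil-like cells rose by 0.95 ± 0.12, later B-like cells by 0.69 ± 0.20 and hepatocyte-like cells by 0.57 ± 0.16. The P3 range lay above the E16.5 range in 9 of the 18 classes, where 24.1% of all pairs did so.

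In stem/progenitor-like cells Igf2bp3 was at 86.5, 92.8, 75.0, 66.4 and 70.6 CPM at E16.5 and at 114, 127, 104 and 159 CPM at P3. The ranges were apart, but the scaled difference of 0.46 ± 0.15 (adjusted p = 0.0183) was lost without D or E5 (adjusted p up to 0.0612). The rise in late erythroid-like cells (0.94) had the opposite sign without TMM scaling (-0.25), and the single fall, in mid erythroid-like cells (-0.51 ± 0.16, adjusted p = 0.0209), was lost without A, C or E5, with doublets kept, and without TMM scaling. The rise in early erythroid-like cells (0.32) was lost without A, B, E1, E2, E4 or E5.

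Arid3a, the B-lineage transcription factor, was highest in plasmacytoid dendritic-like cells at both stages (209.6 and 319 CPM), with ranges that overlapped those of the next class, monocyte-like at E16.5 and later B-like at P3. It rose in 4 of 17 classes, a share near the 21.4% of all pairs that were higher at P3, and these were pro/pre-B-like, later B-like, macrophage-like and late erythroid-like cells. In pro/pre-B-like cells it was at 60.65, 59.0, 34.35, 55.95 and 58.65 CPM at E16.5 and at 163.5, 156, 144 and 198 CPM at P3. The ranges were apart, and the rise was 1.37 ± 0.12 (adjusted p = 2.17e-06), 2.59-fold. The class held different clusters by stage: both E16.5 clusters had Vpreb1 and Igll1 among their leading genes, while at P3 this held for 1 cluster of 1112 cells, and the other clusters (2044 and 1887 cells) were led by Arl5c and Atp1b1 or by Il7r. Arl5c, Atp1b1, Rhoh and Fcrla were also among the leading genes of the later B-like cluster at E16.5, where Arid3a was higher (128.5 against 53.7 CPM in pro/pre-B-like cells). The part of this shift, and of the marker shifts given for Lin28b in this class, in the members' differences was not tested. The thinned share of these cells with a UMI was 10.1% at E16.5 and 28.3% at P3, against 0.582% and 0.561% in late erythroid-like cells. Later B-like cells were at 173, 166, 85.6, 119 and 98.85 CPM at E16.5 and at 313, 307, 219 and 302 CPM at P3. These ranges were apart too, with a rise of 0.67 ± 0.18 (adjusted p = 0.00804).

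In the same pro/pre-B-like cells in which Arid3a rose, Lin28b, Hmga2, Igf2bp1 and Igf2bp2 fell. Arid3a also rose in macrophage-like cells (0.78 ± 0.19, adjusted p = 0.00506), where the part of the marker shifts given with Igf2bp1 was not tested. Its rise in late erythroid-like cells (1.16) became -0.02 without TMM scaling. In stem/progenitor-like cells Arid3a differed by -0.275 ± 0.16 (adjusted p = 0.172) and did not pass.

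Whether the stage difference itself differed between classes was tested against the pooled erythroid-like cells of the same libraries for 6 groups of classes. The make-up of that reference also shifted: early erythroid-like cells gave 5.56% to 14.19% of its UMIs at E16.5 and 22.73% to 33.95% at P3. Lin28b in the pooled cells was at 3.77 to 9.70 CPM and then at 4.92 to 7.71 CPM, although it fell in each of the 3 erythroid-like classes (-0.84, -0.99 and -2.09). The values below are therefore relative to a reference of changed make-up, and the part of that change was not tested. Of 42 such tests on members, 16 passed, 8 more negative and 8 more positive than erythroid-like cells, where 20.9% of 75901 pairs over all genes were more negative and 11.8% more positive. The Hmga2 difference in hepatocyte-like cells was -3.26 ± 0.45 relative to that in erythroid-like cells (adjusted p = 4.43e-05). The Igf2bp1 difference in macrophage-like cells was 2.53 ± 0.57 above that in erythroid-like cells (adjusted p = 0.00298), and in B-lineage cells it was -2.66 ± 0.58 relative to them (adjusted p = 0.003465). The Igf2bp2 difference in mesenchymal-like cells was 1.71 ± 0.52 above (adjusted p = 0.00841), a call lost without library B (1.16, adjusted p = 0.174). The Lin28b difference in neutrophil-like cells was -2.91 ± 0.34 relative to erythroid-like cells (adjusted p = 9.33e-06). The Arid3a difference in B-lineage cells was 1.59 ± 0.14 above (adjusted p = 1.97e-06). The make-up of the pooled B-lineage cells also shifted, from 30 to 158 later B-like cells a library at E16.5 to 544 to 1363 at P3, and Arid3a was higher in these (285 CPM) than in pro/pre-B-like cells (165 CPM) at P3. The part of this shift in the 4 B-lineage values was not tested, and the pro/pre-B-like class, tested alone above, also held different clusters by stage.

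Genotype was compared at E16.5, with the 2 Jag1Ndr/Ndr libraries against the 3 others. No member passed in whole libraries (0 of 7, as for 0% of 14490 genes) or by class (0 of 101 tests, where 0.000634% of 157846 pairs over all genes passed). At an unadjusted p under 0.05, 0 of 7 whole-library tests and 1 of 101 class tests stood, against 0.959% and 1.71% over all genes and pairs. DESeq2 called 5 genes in whole libraries and 13 pairs by class, with 0 members among them. Whole-library log2 differences of the members, homozygous minus other, ran from -0.40 for Igf2bp1 to 0.23 for Igf2bp2. Whole-library Igf2bp1 was at 3.69 and 12.7 CPM in E4 and E5, and the other 3 libraries lay between 6.24 and 16.7 CPM, so the homozygous pair spread as widely as the rest. Of 119 pairs of member and class, 114 had overlapping ranges. Of the 101 with enough counts to be tested 2 were apart, against 9.18% of all tested pairs: Igf2bp3 was lower in stem/progenitor-like and Igf2bp2 higher in megakaryocyte-like cells of the homozygous libraries. The other 3 that were apart had low counts: Lin28b in mesenchymal-like, and Hmga2 in conventional dendritic-like and in megakaryocyte-like cells. On simulated counts of this design, 26% of 2-fold and 96% of 4-fold changes were recovered in whole libraries, so smaller differences were mostly not detectable. The simulation gave every gene the same spread between libraries and changed only genes with enough counts. These shares may therefore not hold for a member with a wider spread, such as Igf2bp1 (SE 0.43).

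The other genes of the let-7 pathway were taken from lists. Of 14 tested genes of let-7 processing, 5 rose and 2 fell in whole libraries, against 27.6% and 26.4% of all genes, and with a median difference of 0.11 against 0.02. Xpo5, the exporter of precursor miRNAs, rose from 4.63 to 20.6 CPM (1.55 ± 0.095, adjusted p = 1.92e-06), and Dis3l2, the nuclease that degrades tailed let-7 precursors, rose by 0.50 ± 0.10. Dicer1, which cuts precursors, rose by 0.43 ± 0.11, and Khsrp, a binding protein of let-7 precursors, was lower after scaling (-0.50 ± 0.13), while its mean CPM was 44.2 at E16.5 and 45.99 at P3. Lin28a, the paralog of Lin28b, was at 1.48, 2.70, 0.833, 1.50 and 1.61 CPM at E16.5 and at 5.29, 3.87, 3.405 and 3.12 CPM at P3, all above E16.5, with a rise of 0.74 ± 0.205 (adjusted p = 0.0106). By class, only neutrophil-like and promyelocyte-like cells had enough Lin28a counts to be tested. Lin28a rose in neutrophil-like cells from 12.8 to 21.55 CPM (0.75 ± 0.17, adjusted p = 0.00323). It did not pass in promyelocyte-like cells (0.56 ± 0.24, adjusted p = 0.0775). In whole libraries the stage difference of Lin28a thus had the opposite sign to that of Lin28b. Among the listed host transcripts of let-7 family members, only Huwe1 had enough counts to be tested. Huwe1 was lower after scaling (-0.39 ± 0.15, adjusted p = 0.0409), while its mean CPM was 60.4 at E16.5 and 68.2 at P3. Host genes outside the list were not examined.

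Of 20 other known let-7 targets, 11 fell and 3 rose in whole libraries, where 26.4% of all genes fell and 27.6% rose, and their median was -0.42. Plagl2, a zinc finger factor, went from 37.7 to 24.2 CPM (-1.20 ± 0.15). E2f5 differed by -0.67 ± 0.115 after scaling, while its mean CPM was 5.78 at E16.5 and 5.45 at P3. Trim71, a stem cell RNA-binding ubiquitin ligase, was near the limit of detection, at 0.291 to 0.891 CPM at E16.5 and 0.0101 to 0.0412 CPM at P3 (-4.45 ± 0.39). Ccnd2, a G1 cyclin, rose from 20.4 to 67.7 CPM (1.16 ± 0.16). In 3′ UTRs, 15 of the 20 held the 7-base match, against 4 of the 14 processing genes with a UTR. The 20 were listed as known targets, so this share too describes the list and tests nothing. Of 19 targets tested in pro/pre-B-like cells, 9 fell and 2 rose, where 24.7% of all genes fell and 24.8% rose.

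Proliferation genes did not move uniformly across the classes in which the members fell. In whole libraries 6 of 17 fell and 2 rose after scaling, against 26.4% and 27.6% of all genes. Among them were Cdk1 (-1.03 ± 0.17), Mcm2 (-0.71 ± 0.18), Aurkb (-0.57 ± 0.09) and Mcm7 (0.54 ± 0.145). The falls of Aurkb, Ccna2, Ccnb1 and Rrm2 rest on the scaling, since their mean CPM was higher at P3 (for Aurkb, 49.95 and then 50.5 CPM). In pro/pre-B-like cells 3 fell and 5 rose, with a median of 0.02, which is near the 24.7% and 24.8% of all genes there. In mid erythroid-like cells 8 rose and 0 fell, where 24.4% of all genes rose and 27.3% fell. In hepatocyte-like cells 9 fell and 0 rose, with a median of -0.59, where 20.2% of all genes fell and 22.8% rose. The part of cell division in the members' differences was not tested.

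Across 36 means (18 classes at 2 stages) of log2(CPM + 1), the gene most like Lin28b among 10614 with at least 20 CPM somewhere was Tex30 (Pearson r = 0.875), followed by Exosc2 and 1190007I07Rik. Those most like Hmga2 were Adgrl4 (r = 0.808), Hoxa9 (0.806) and Dnmt3b (0.80). Hmga1 was closest to its copy Hmga1b (r = 0.951), then Zfp706 and Dnajc2. Igf2bp1 was closest to Tor1aip2 (r = 0.906), Maff and Ctnnd1, and Igf2bp2 to Adgra3 (r = 0.881), Enah and Lzts2. Igf2bp3 was closest to Smad2 (r = 0.926), Reps1 and Appl1, and Arid3a to Tnfrsf13b (r = 0.926), Tnfaip8 and Prkcd. Among the members, Igf2bp3 and Arid3a had r = 0.816, Lin28b and Hmga2 had r = 0.512, and Igf2bp1 and Igf2bp3 had r = -0.01. With Spearman's rho in place of r, none of the 3 genes named for Hmga2, for Igf2bp2 or for Igf2bp3 stayed among the 3 closest. The points share libraries and depth, so these values describe likeness only.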

How the data were processed

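The authors deposited raw UMI counts per gene and barcode as 10x matrices, written by 10x software 3.1.0 (E16.5) and 3.0.2 (P3), per the file headers. The submitters' processing notes name Cell Ranger 2.1.1, R 4.1.2, Seurat and mm10. The gene lists held 31053 (E16.5) and 22597 (P3) genes, and the 22519 common ones were used. Members and lists were chosen with earlier results of these data known. Matrices sharing barcodes were counted once, since 12 matrices held 9 libraries. Used barcodes had 1000 UMIs or more, and no more than 15% of them were mitochondrial. For analyses by class, doublets called per library were removed (1.48% to 16.2% of barcodes). Each stage was clustered separately (2000 variable genes, 30 components, 15 neighbours, Leiden resolution 1), and clusters were named from marker lists; the names are rebuilt here and may differ from the authors' own. No class was named as bile duct cells.

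Counts were summed per library, or per library and class with at least 20 cells, filtered with filterByExpr, and tested with edgeR 4.0.16 (quasi-likelihood, TMM) in R 4.3.3, with Benjamini-Hochberg adjustment over all genes or all pairs of class and gene. The SE is the log2 difference divided by the root of F. DESeq2 1.42.0 was an alternative. The difference between classes was an interaction with the library as a block. Named genes outside the members are those called in whole libraries, at most 4 per list by adjusted p, and the 3 genes most alike. Tut4 and Tut7 are tested under their older symbols. Tests were run on simulated data, with the same spread between libraries for every gene. For stage, 81% of 2-fold changes in whole libraries, 69% in stem/progenitor-like and 56% in hepatocyte-like cells were recovered. For the stage difference of hepatocyte-like against erythroid-like cells, 17% of 2-fold and 76% of 4-fold changes were recovered.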

Additional observations from a re-analysis of the deposited data

Results flagged for a closer look

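Among the 55 sets of 4 or 5 libraries examined, 3 had a library far from the others, where chance gives about 1 in 20. Whole-library Hmga1 in P3 library B was at 31.67 CPM, with the other P3 libraries at 4.13 to 8.453 CPM. Whole-library Igf2bp2 in P3 library C was at 1.28 CPM, with the others at 1.53 to 1.581 CPM, a gap that is small in size. Arid3a in later B-like cells of P3 library C was at 218.8 CPM, with the others at 301.8 to 313.4 CPM.

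The stage difference of 16 pairs differed from that of erythroid-like cells by the interaction test, given here as log2 values. In B-lineage cells the value was 1.592 for Arid3a, -1.914 for Hmga2, -2.663 for Igf2bp1 and -0.991 for Lin28b. In macrophage-like cells it was 0.602 for Arid3a, 2.526 for Igf2bp1, 1.556 for Igf2bp2, 0.667 for Igf2bp3 and -1.344 for Lin28b. In neutrophil-like cells it was -1.723 for Hmga2, 0.598 for Igf2bp3 and -2.91 for Lin28b. In hepatocyte-like cells it was -3.259 for Hmga2 and -1.226 for Lin28b. For Igf2bp2 it was 1.084 in endothelial-like and 1.706 in mesenchymal-like cells. Of these, the Lin28b value in hepatocyte-like cells was lost without library A (adjusted p = 0.0581), that of Igf2bp2 in endothelial-like cells without A, B or C or without TMM scaling (adjusted p up to 0.232), and that of Igf2bp3 in neutrophil-like cells without TMM scaling (0.033, adjusted p = 0.9225).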

How the results depend on the processing

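Of 98 whole-library stage values of the members under alternatives, 96 kept their side of the threshold, and their direction where they passed. The same held for 1469 of 1570 by class, 442 of 462 of the differences between classes and 1262 of 1262 by genotype. No member passed by genotype under any setting, so that last count speaks to the threshold and not to direction. With 1 library left out, Hmga1 ran from -0.911 to 0.414 in whole libraries, -0.907 to 0.384 in early erythroid-like, -0.875 to 0.39 in macrophage-like, -0.867 to 0.577 in monocyte-like, -1.097 to 0.354 in neutrophil-like and -0.931 to 0.526 in promyelocyte-like cells, each lowest, and reversed, without library B. Without TMM scaling, late erythroid-like values turned negative for Arid3a (-0.023) and Igf2bp3 (-0.248), and the share of calls over all genes that were higher at P3 rose from 51.05% to 85.66% in whole libraries and from 49.57% to 63.1% by class. Over all pairs of class and gene, the genotype test called 1 pair, and 13 with DESeq2, 15 without TMM scaling, 297 without a count filter, 2 with the replicate block and 2 to 100 with 1 library left out, with 0 members among them. In whole libraries it called 0 genes, and 5 with DESeq2, 1 without TMM scaling and 0 to 1 with 1 library left out. Replicate numbers did not pair the samples across stages, where deviations between replicates correlated at -0.023 and 0.127. Within E16.5 they correlated at 0.376 between Jag1+/+ and Jag1Ndr/Ndr, and the main genotype test had no term for replicate. With the replicate block, 4517 pairs of the genotype test by class had an unadjusted p under 0.05, against 2693 without it. The same block in the stage tests gave 7621 genes and 68484 pairs called, against 7835 and 70173. Among the members, 47 of 100 class tests passed with it, against 52 without it. Of the 14 top classes by share of cells, 6 stayed on top when thinned to 1000 UMIs, and 10 of the 21 most alike genes stayed with Spearman. The causes were not tested. Depth limits low classes: 26 pairs were untested.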
